A study of Homo sapiens with 21 samples.

Results

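The 42 genes described here encode proteins of the spliceosome core and its snRNPs, and a few related proteins such as LSM1, PDCD7 and GEMIN5. They were chosen by symbol from the rows of the gene table through their Ensembl identifiers, out of 60671 rows in all. They comprise the 7 genes of the Sm ring, the 8 LSM genes, 3 proteins of the U1 snRNP, 13 of the U2 snRNP with its SF3A, SF3B and U2AF factors, 4 of the U5 snRNP, 3 of the U4/U6.U5 tri-snRNP, and PRPF19, SNW1, PDCD7 and GEMIN5. Polyadenylated RNA of 2 established human cell lines was sequenced in 21 libraries, 3 in each of 7 groups. OCI-AML3, a line from an acute myeloid leukaemia, was untreated at 0 h, or had received DMSO or 1 μg/mL tunicamycin for 4 h or for 24 h. HEK293T, a line of embryonic kidney origin, had received DMSO or 1 μg/mL tunicamycin for 24 h. Tunicamycin blocks N-linked glycosylation and thereby causes endoplasmic reticulum (ER) stress, and DMSO is its solvent. The labels number the replicates but do not say whether they were separate cultures, so p-values measure the spread between these libraries, which may be technical.

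Pre-mRNA splicing is carried out by small nuclear ribonucleoproteins (snRNPs), each built on a small nuclear RNA. The Sm proteins form a ring around the U1, U2, U4 and U5 RNAs, and the LSM2-8 ring does the same on U6, whereas the LSM1-7 ring acts in the cytoplasm in the decay of mRNA. U1 recognises the 5′ splice site, U2 with SF3A and SF3B the branch point, U2AF the 3′ end of the intron, and the tri-snRNP then joins to form the catalytic core around PRPF8. The comparisons below ask how the mRNA of these components stood after ER stress, at each time and in each line.

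The libraries held 13838480 to 19961819 counts. All 42 genes passed the filter of 1 CPM in 8 libraries, as did 14012 genes in all. A level in CPM is a count scaled to its library size, which was adjusted by TMM. The defining markers fitted the labels in most cases: PTPRC, which encodes the leukocyte antigen CD45, averaged 263 to 431 CPM in the OCI-AML3 groups and 0 in HEK293T, and NEFM, a neurofilament gene that HEK293T cells express, averaged 107 to 135 CPM in HEK293T and at most 0.065 in OCI-AML3. MPO, a myeloid granule gene, was near the detection limit in OCI-AML3 at 1.03 to 1.52 CPM, and PAX2, a kidney gene, was at 1.11 to 1.39 CPM in HEK293T. The ER stress marker HSPA5, which encodes the chaperone BiP, averaged 704 CPM with DMSO and 6869 CPM with tunicamycin at 4 h in OCI-AML3. The third tunicamycin library at 24 h in OCI-AML3 was the lowest of its group for 27 of the 42 genes, 5 of the 7 Sm genes and 6 of the 8 LSM genes among them, and the overall count, and several changes that it moved, are also given without it. Because these are bulk libraries scaled to their totals, a smaller share of a transcript and fewer cells that make it cannot be told apart.

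The summed level of the 42 genes was lower with tunicamycin than with DMSO in every comparison, most so at 24 h in OCI-AML3. The sum was 7812 to 8063 CPM in the DMSO libraries at 4 h and 7250 to 7409 CPM in the tunicamycin libraries. At 24 h it was 7189 to 7634 CPM with DMSO and 5001 to 5622 CPM with tunicamycin. In HEK293T it was 7807 to 7895 CPM with DMSO and 6681 to 6914 CPM with tunicamycin. The groups of each pair did not overlap, and untreated OCI-AML3 cells, at 7746 to 8017 CPM, lay within the range of the DMSO libraries at 4 h or slightly below it. The sums of abundant genes weigh most here, and their differences were not tested.

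**Figure D1:**
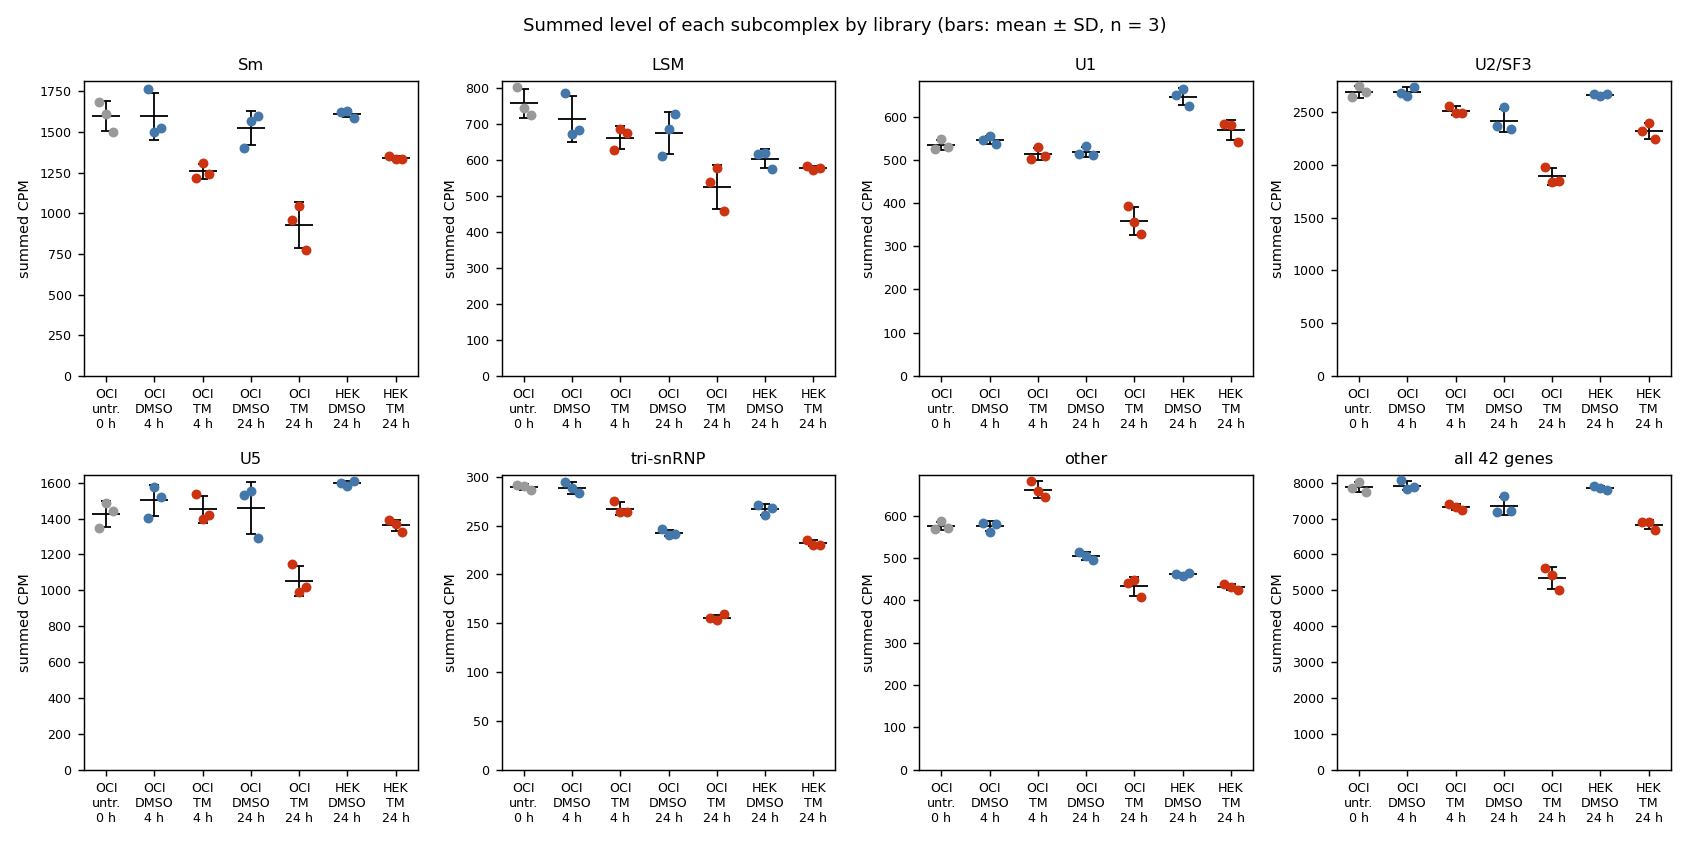
Summed CPM (y axis, linear from 0) of the genes of each subcomplex in every library, by group (x axis; TM, tunicamycin), with points for the 3 libraries and bars for mean ± SD. The sum of all 42 genes reached at most 5622 CPM in the OCI-AML3 libraries with tunicamycin at 24 h, below the lowest DMSO library at 7189 CPM.

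Gene by gene, the number that fell grew from 4 h to 24 h in OCI-AML3. At 4 h, 17 of 42 genes fell with tunicamycin (adjusted p up to 0.05) and 5 rose, against 18.9% lower and 18.5% higher among all genes tested. At 24 h, 37 of 42 were lower and 1 was higher, against 27.7% lower and 23.5% higher. In HEK293T at 24 h, 20 were lower and 2 higher, against 13.1% and 12.6%. Their median log2 fold changes, in the same order, were -0.14, -0.54 and -0.18, where those over all genes tested were -0.02, -0.01 and -0.01. The compared groups did not overlap for many genes. Over all genes tested, 22.9% lay higher and 23.4% lower with tunicamycin at 4 h. The shares were 25% and 27.8% at 24 h, and 23.4% and 25.7% in HEK293T. Of the 42 genes, 6 and 18 did so at 4 h, 1 and 35 at 24 h, and 3 and 27 in HEK293T. A lack of overlap by itself is not read as a change. The U2AF1 row enters these counts without its duplicate, described below.

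Most changes were smaller than a factor of 2. Only SNRPG at 24 h in OCI-AML3 also passed a log2 fold change of 1 in size, against 6.32% of all genes in that comparison, and none did so at 4 h (4.92% of all genes) or in HEK293T (2.13%). SNRPG was at -0.83 without the third tunicamycin library and at -0.96 without the third DMSO library, so that its call past both thresholds was lost, while SNRPD2 reached -1.08 without the second tunicamycin library. All 17 genes that fell at 4 h in OCI-AML3 were among the 37 that fell at 24 h, and all 20 that fell in HEK293T were among those 37 as well. Across the subcomplexes, 10 genes fell in all 3 comparisons, namely SNRPD3, SNRPE, SNRPF, SNRPG, SNRPC, SNRNP70, SF3B3, SF3B4, PRPF4 and GEMIN5. Of these, 5 lost a call under some alternative, namely SNRPD3 at 24 h in both lines, SNRPF, SNRPG and SF3B3 in HEK293T and SF3B4 at 4 h. The median at 4 h was -0.08 without the first DMSO library. Without the third tunicamycin library at 24 h, 34 genes fell in that comparison and the median was -0.43. Leaving out any 1 library of HEK293T other than the third DMSO library lowered the count of genes that fell there to between 11 and 13, while fitting the HEK293T groups alone raised it to 27.

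**Figure D2:**
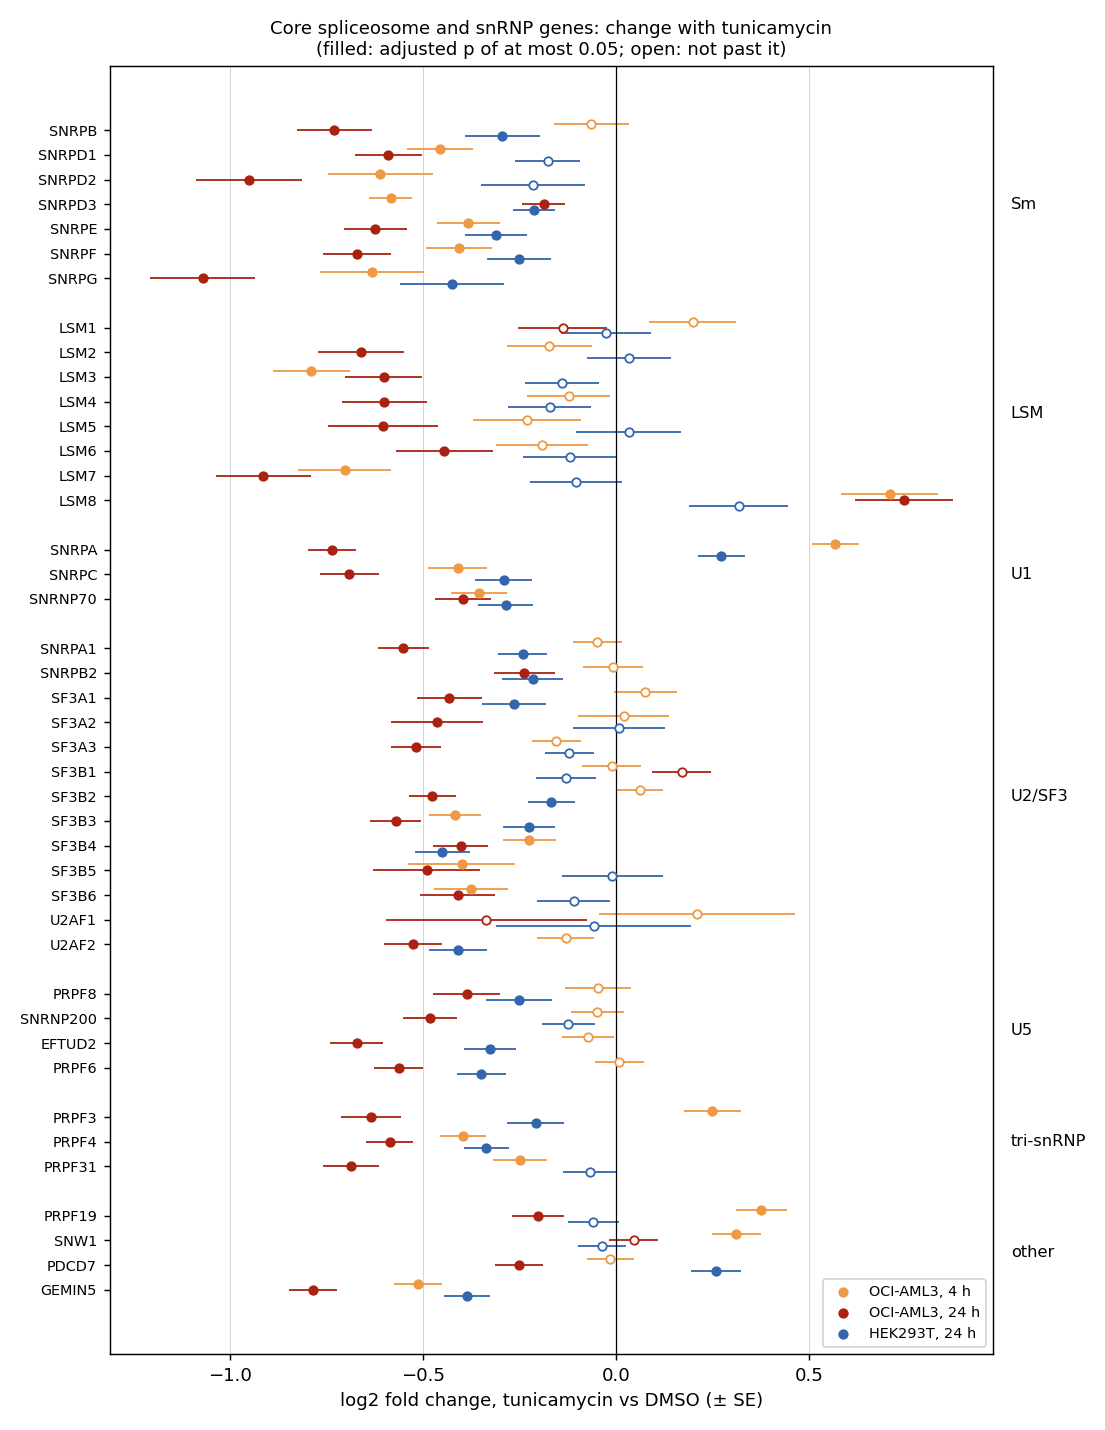
Log2 fold change (x axis, ± SE) with tunicamycin against DMSO of the 42 genes (y axis, by subcomplex) in OCI-AML3 at 4 h and 24 h and in HEK293T at 24 h, with filled points past an adjusted p of 0.05 and open points not. The points of OCI-AML3 at 24 h lie left of 0 for 39 of the 42 genes, with SNRPG farthest at -1.07 and LSM8 on the other side at 0.75.

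Most Sm ring genes fell in each comparison. All 7 were lower at 24 h in OCI-AML3 with a median log2 fold change of -0.67, 6 of 7 were lower at 4 h with a median of -0.46, and 5 of 7 were lower in HEK293T with a median of -0.25. Of those 5 in HEK293T, only SNRPE kept its call under every alternative run. SNRPB and SNRPF lost it without any 1 library of HEK293T but the third with DMSO (adjusted p = 0.0523 to 0.106). Without the third tunicamycin library 6 of 7 were lower at 24 h in OCI-AML3, with a median of -0.55. Summed over the ring, the level at 24 h was 1402 to 1601 CPM with DMSO and 774 to 1048 CPM with tunicamycin. SNRPB, the gene of the Sm proteins B and B′, was the exception at 4 h, with a log2 fold change of -0.07 (adjusted p = 0.637), and fell by 0.73 at 24 h, or by 0.55 without the third tunicamycin library.

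SNRPG encodes the smallest Sm protein and lies on the minus strand of chromosome 2. At 24 h in OCI-AML3 it stood at 147, 168 and 181 CPM with DMSO and at 82.4, 98.4 and 56.0 CPM with tunicamycin. At 4 h the values were 187, 161 and 163 CPM with DMSO and 96.9, 122 and 110 CPM with tunicamycin. In HEK293T they were 124, 129 and 117 CPM with DMSO and 93.3, 91.5 and 90.3 CPM with tunicamycin. The tunicamycin libraries lay below the DMSO libraries each time, with log2 fold changes of -1.07 ± 0.14 (SE, adjusted p = 1.09e-06), -0.63 ± 0.13 (adjusted p = 0.000633) and -0.43 ± 0.13 (adjusted p = 0.0219). Named pseudogenes of SNRPG took at most 0.88% of its reads in any library. The call in HEK293T was lost without the first or second DMSO library or the second or the third tunicamycin library (-0.39 to -0.42, adjusted p = 0.0526 to 0.0741).

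SNRPD2 encodes the Sm protein D2, which pairs with D1 in the ring. At 24 h in OCI-AML3 it was at 253, 302 and 315 CPM with DMSO and at 156, 186 and 109 CPM with tunicamycin, a log2 fold change of -0.95 ± 0.14 (adjusted p = 5.98e-06), or -0.72 (adjusted p = 4.28e-05) without the third tunicamycin library. At 4 h it was at 316, 229 and 244 CPM with DMSO and at 161, 189 and 165 CPM with tunicamycin, a change of -0.61 ± 0.14 (adjusted p = 0.00104). In HEK293T it did not pass the threshold, with a change of -0.22 ± 0.13 (adjusted p = 0.260). Its libraries did not overlap there, as for 25.7% of all genes in that direction.

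Among the Sm genes, only SNRPD3, the gene of Sm protein D3, fell less at 24 h than at 4 h, and whether it differed from the others was not tested. It was at 161, 162 and 158 CPM with DMSO and at 106, 105 and 109 CPM with tunicamycin at 4 h, which overlapped with no DMSO library. At 24 h it was at 135, 130 and 141 CPM with DMSO and at 116, 122 and 119 CPM with tunicamycin. The log2 fold changes were -0.58 ± 0.06 and -0.19 ± 0.06, and their difference of 0.40 ± 0.08 was the only one past the threshold of the 4 above 0 (adjusted p = 0.000486). An unnamed gene on the same strand overlaps its exons by 548 bases, and with the rows of both summed, an alternative added after the data had been seen, the changes were -0.54 at 4 h and -0.31 at 24 h. The call at 24 h was lost when any of several libraries was left out, with log2 fold changes down to -0.11 (adjusted p = 0.149) without the third DMSO library at 24 h.

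**Figure D3:**
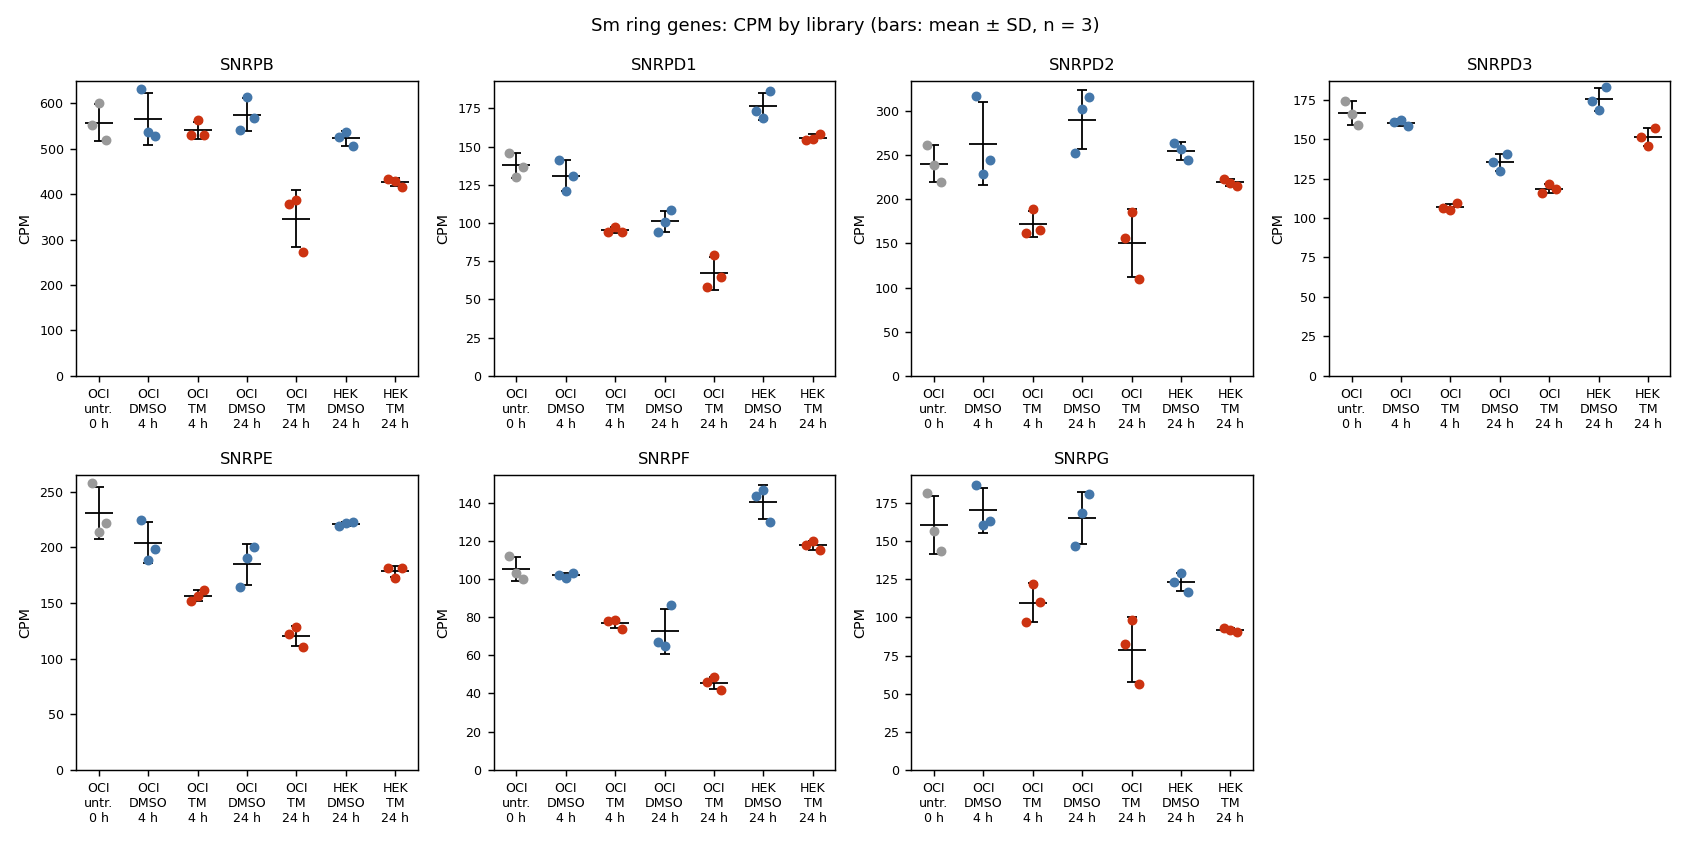
CPM (y axis, linear from 0) of the 7 Sm ring genes in every library, by group (x axis), with points for the 3 libraries and bars for mean ± SD. The red tunicamycin points at 24 h in OCI-AML3 lie below the blue DMSO points beside them in all 7 panels, from 116 to 122 against 130 to 141 CPM for SNRPD3 to 56.0 to 98.4 against 147 to 181 CPM for SNRPG.

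Levels within the ring differed widely although the 7 proteins are used in equal number. Per kilobase of the canonical transcript, untreated OCI-AML3 cells had 515 ± 38 CPM per kb (SD, n = 3) of SNRPB, 466 ± 41 of SNRPD2, 271 ± 32 of SNRPG, 233 ± 14 of SNRPF, 148 ± 15 of SNRPE, 48.1 ± 2.2 of SNRPD3 and 28.3 ± 1.6 of SNRPD1. The neighbours SNRPB and SNRPD2 differed by about their spread, as did SNRPG and SNRPF. The lower end of the order depends on the length used: the canonical SNRPD1 transcript has 4858 bases, and with the median length of its coding transcripts, 723 bases, its level was 190 CPM per kb, as was that of SNRPF. SNRPB and SNRPD2 stood highest with both lengths in untreated cells.

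The LSM genes split at 24 h in OCI-AML3. There LSM2, LSM3, LSM4, LSM5, LSM6 and LSM7, which both rings share, all fell, by 0.45 to 0.91 on the log2 scale. The same 6 fell without the third tunicamycin library, and LSM6 lost its call without the third DMSO library (-0.23, adjusted p = 0.132) or the first tunicamycin library (-0.34, adjusted p = 0.0520). LSM8, found only in the nuclear U6 ring, rose by 0.75, and LSM1, found only in the cytoplasmic decay ring, did not pass the threshold. At 4 h only LSM3 and LSM7 fell and LSM8 rose. These are 25% and 12.5% of the 8, near the 18.9% and 18.5% of all genes. In HEK293T none of the 8 passed the threshold, with log2 fold changes between -0.17 and 0.32.

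LSM3 had the largest fall of the 42 at 4 h. It was at 92.1, 75.1 and 82.2 CPM with DMSO and at 43.2, 50.6 and 50.4 CPM with tunicamycin, a log2 fold change of -0.79 ± 0.10 (adjusted p = 1.35e-06). LSM7 was at 124, 113 and 103 CPM with DMSO and at 64.9, 75.9 and 68.4 CPM with tunicamycin at 4 h, a change of -0.70 ± 0.12 (adjusted p = 6.63e-05). At 24 h LSM7 was at 97.5, 116 and 120 CPM with DMSO and at 65.7, 67.1 and 44.8 CPM with tunicamycin, a change of -0.91 ± 0.12 (adjusted p = 2.12e-06), or -0.70 (adjusted p = 2.03e-05) without the third tunicamycin library. In each case the groups were apart, whereas in HEK293T LSM7 overlapped between the groups, with a change of -0.10 (adjusted p = 0.576).

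LSM8, on the plus strand of chromosome 7, was the only gene of the 42 that rose at both times in OCI-AML3. At 4 h it was at 69.0, 85.6 and 94.6 CPM with DMSO and at 125, 130 and 152 CPM with tunicamycin, and at 24 h at 72.1, 84.7 and 74.0 CPM against 122, 129 and 136 CPM. The log2 fold changes were 0.71 ± 0.13 (adjusted p = 9.78e-05) and 0.75 ± 0.13 (adjusted p = 4.25e-05), the latter also 0.75 without the third tunicamycin library. In HEK293T it was at 47.9, 54.3 and 54.5 CPM with DMSO and at 63.4, 61.7 and 70.4 CPM with tunicamycin. The HEK293T groups did not overlap, as for 23.4% of all genes in that direction. The change of 0.32 ± 0.13 did not pass the threshold (adjusted p = 0.0735), and its difference from OCI-AML3 did not either (-0.43 ± 0.18, adjusted p = 0.0807). It did pass in HEK293T with the groups of that line alone (0.33, adjusted p = 0.000146), with no filter beyond 1 count (0.30, adjusted p = 0.0118), with the replicate block (0.32, adjusted p = 0.0485), and without the second untreated or the first DMSO 4 h library of OCI-AML3.

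LSM1 was at 89.3, 67.6 and 72.8 CPM with DMSO and at 81.5, 89.3 and 92.5 CPM with tunicamycin at 4 h, and at 55.4, 53.6 and 67.8 CPM against 53.6, 60.2 and 46.9 CPM at 24 h. Its libraries overlapped between the groups in all 3 comparisons, with log2 fold changes of 0.20, -0.14 and -0.03 (adjusted p = 0.181, 0.330 and 0.923). At 4 h LSM1 passed the threshold without the first DMSO library (0.32, adjusted p = 0.0299). The sign at 24 h turned without the third DMSO library (0.02), and that in HEK293T without the second DMSO library (0.07). A gene on the other strand, BAG4, overlaps its exons, and since strand use in counting is not given, reads of BAG4 may be among its counts.

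The ratio of LSM8 to LSM1 CPM, which is not corrected for length and so is read only between groups, was 0.77, 1.27 and 1.30 with DMSO and 1.54, 1.46 and 1.64 with tunicamycin at 4 h. It was 1.30, 1.58 and 1.09 with DMSO and 2.27, 2.15 and 2.90 with tunicamycin at 24 h, and 1.21, 1.15 and 1.44 against 1.61, 1.46 and 1.74 in HEK293T. Every tunicamycin library stood above every DMSO library of its comparison. The log2 ratio differed by 0.51, 0.88 and 0.34, each with p = 0.1 in a two-sided exact permutation test, the smallest value that 3 against 3 libraries can give. The ratio was chosen with the LSM8 change at 4 h known, so these values are a description. They are not independent of the LSM8 changes in the same libraries. Without the first DMSO library at 4 h the difference at 4 h was 0.27.

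The LSM genes also differed in level. Per kilobase of canonical transcript in untreated OCI-AML3 cells, LSM7 stood highest at 220 ± 22 CPM per kb, followed by LSM4 at 140 ± 9, LSM1 at 92.3 ± 9.9, LSM2 at 49.9 ± 0.9, LSM5 at 30.8 ± 2.7, LSM3 at 24.5 ± 1.5, LSM6 at 19.8 ± 1.5 and LSM8 at 7.25 ± 1.55. These steps exceed the spread of the libraries, but their order is partly one of annotated length: the canonical LSM8 transcript has 12384 bases, and with the median length of coding transcripts LSM4 stood above LSM7 and LSM3 was lowest.

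In the U1 snRNP, SNRPA moved against SNRPC and SNRNP70 at 4 h. SNRPA encodes the protein A of U1, which binds a stem loop of U1 RNA, and lies on chromosome 19. It was at 134, 128 and 125 CPM with DMSO and at 192, 195 and 186 CPM with tunicamycin at 4 h. It was at 139, 138 and 141 CPM with DMSO and at 92.3, 84.2 and 75.4 CPM with tunicamycin at 24 h. In HEK293T it was at 105, 99.4 and 100.3 CPM with DMSO and at 121, 124 and 123 CPM with tunicamycin.

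SNRPA thus rose at 4 h, fell at 24 h and rose in HEK293T at 24 h, with no overlap between groups. The log2 fold changes were 0.57 ± 0.06 (adjusted p = 1.26e-07), -0.74 ± 0.06 (adjusted p = 2.67e-09) and 0.27 ± 0.06 (adjusted p = 0.00209). The difference between the times was -1.30 ± 0.09 (adjusted p = 2.82e-10) and that between the lines 1.01 ± 0.09 (adjusted p = 2.41e-08), both the farthest from 0 among the 42. Without the third tunicamycin library, SNRPA was at -0.62 at 24 h (adjusted p = 3.49e-08). The DMSO libraries did not differ between 4 h and 24 h past the threshold (0.12, adjusted p = 0.134). ACTMAP on the other strand shares 89 exonic bases with SNRPA, and its part in these values was not tested.

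SNRPC and SNRNP70, which encode the U1 proteins that contact the 5′ splice site and stem loop I of U1 RNA, fell in all 3 comparisons. SNRPC was at 125, 98.2 and 114 CPM with DMSO and at 82.0, 86.0 and 85.1 CPM with tunicamycin at 4 h, and at 89.4, 87.9 and 95.9 CPM against 59.2, 59.6 and 50.5 CPM at 24 h. SNRNP70 was at 284, 306 and 273 CPM with DMSO and at 241, 212 and 202 CPM with tunicamycin at 24 h. The 3 log2 fold changes of SNRPC were -0.41, -0.69 and -0.29, and those of SNRNP70 -0.36, -0.40 and -0.29.

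**Figure D4:**
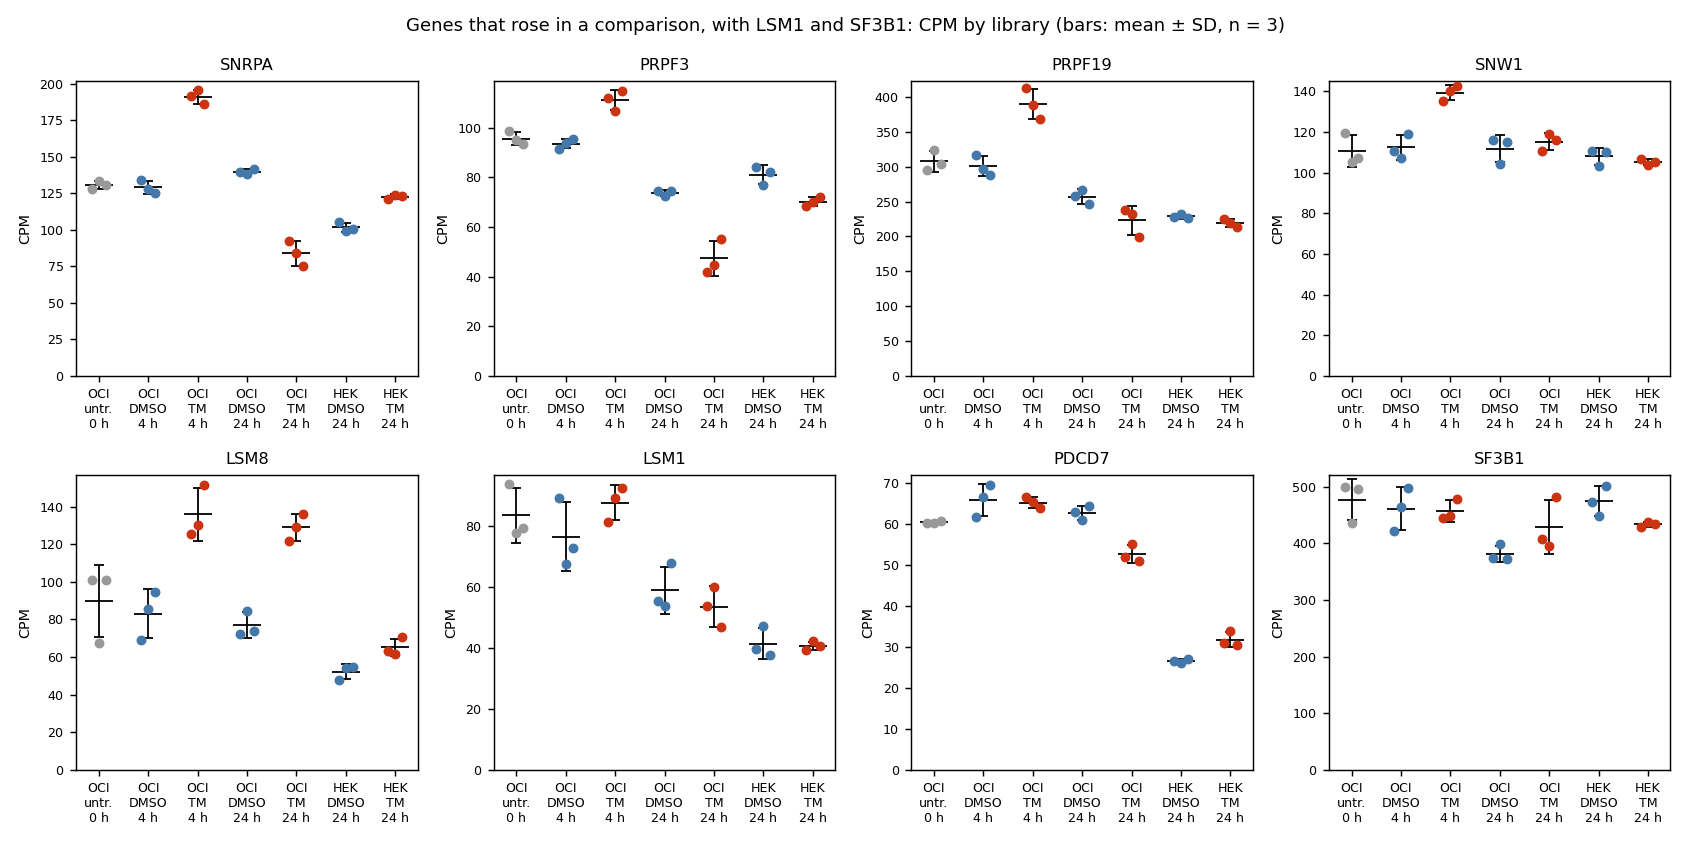
CPM (y axis, linear from 0) by group (x axis) of the genes that rose in at least 1 comparison, with LSM1 and SF3B1 beside them, with points for the 3 libraries and bars for mean ± SD. SNRPA, PRPF3 and PRPF19 lie above DMSO at 4 h and below it at 24 h in OCI-AML3, and LSM8 lies above DMSO at both times, at 122 to 136 CPM against 72.1 to 84.7 CPM at 24 h.

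Among the U2 and SF3 genes, the change at 24 h in OCI-AML3 was broad, while at 4 h 4 genes passed the threshold, all of SF3B. Whether SF3B differed from the others at 4 h was not tested, and SF3A3 narrowly missed the threshold there (-0.16, adjusted p = 0.0564). At 4 h SF3B3, SF3B4, SF3B5 and SF3B6 fell, 30.8% of the 13, against 18.9% of all genes. The other 9 did not pass the threshold, and the median was -0.05. At 24 h 11 of 13 fell, with a median of -0.46, and 10 fell without the third tunicamycin library. In HEK293T 7 of 13 fell, with a median of -0.17. These counts hold the U2AF1 row by itself, which was not called. Its sum with the duplicate fell at 24 h in OCI-AML3 and in HEK293T, as given below. At 24 h in OCI-AML3 SNRPB2 lost its call without the third DMSO library (-0.09, adjusted p = 0.359) and in many other settings, and SF3B5, whose libraries overlap, lost it without the third library of DMSO (-0.34, adjusted p = 0.0646) or of tunicamycin (-0.29, adjusted p = 0.0899). In HEK293T SNRPB2, SF3A1, SF3B2 and SF3B3 each lost their call when single libraries were left out (adjusted p = 0.0513 to 0.155). SF3B3, a scaffold of the SF3B complex, was at 389, 427 and 421 CPM with DMSO and at 324, 296 and 305 CPM with tunicamycin at 4 h, a log2 fold change of -0.42 ± 0.07 (adjusted p = 3e-05). The fall of SF3B5 at 4 h (-0.40, adjusted p = 0.0266) was not called without the first library of DMSO (-0.26, adjusted p = 0.156) or of tunicamycin (-0.33, adjusted p = 0.122), and that of SF3B4 (-0.23) was not called without the third library of DMSO (-0.18, adjusted p = 0.0696) or of tunicamycin (-0.20, adjusted p = 0.0566).

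Of the U2 and SF3 genes, SF3B4 and U2AF2 fell most in HEK293T. SF3B4, which crosslinks upstream of the branch point, was at 85.4, 91.9 and 86.1 CPM with DMSO and at 63.6, 63.6 and 65.4 CPM with tunicamycin, a log2 fold change of -0.45 ± 0.07 (adjusted p = 4.68e-05). U2AF2, the subunit that binds the polypyrimidine tract, was at 376, 390 and 347 CPM with DMSO and at 291, 280 and 265 CPM with tunicamycin, a change of -0.41 ± 0.07 (adjusted p = 0.000235). U2AF2 also fell at 24 h in OCI-AML3 by 0.53, while its change at 4 h was -0.13 (adjusted p = 0.174).

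SF3B1, which holds the branch point helix and is the largest SF3B subunit, did not pass the threshold in any tunicamycin comparison. It was at 375, 398 and 372 CPM with DMSO and at 408, 396 and 483 CPM with tunicamycin at 24 h in OCI-AML3, groups that overlap, with a log2 fold change of 0.17 ± 0.08 (adjusted p = 0.0729), the nearest to the threshold of the 4 genes not called there. Under DESeq2, without TMM and with 1 CPM in 3 libraries, 2 genes rather than 1 were higher in this comparison. The same count was reached without several single libraries, among them any 1 of HEK293T and the first or second with tunicamycin at 24 h in OCI-AML3. In HEK293T SF3B1 was at 473, 448 and 501 CPM with DMSO and at 428, 438 and 434 CPM with tunicamycin. These groups did not overlap, as for 25.7% of all genes in that direction. The change was -0.13 (adjusted p = 0.233), and its difference from OCI-AML3 was -0.30 ± 0.11 (adjusted p = 0.0456), the only one past the threshold of the 5 below 0. That call was lost without the third tunicamycin library of OCI-AML3 at 24 h (-0.25, adjusted p = 0.0698), without the third DMSO library of HEK293T, and without any of 3 OCI-AML3 libraries of other groups (the third untreated and the first and second tunicamycin libraries at 4 h).

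The row of U2AF1, the subunit that reads the AG at the 3′ end of the intron, cannot be used by itself. GRCh38 holds an artefactual duplicate of U2AF1 on the same chromosome, ENSG00000275895, at chr21:6484623-6499248, beside the gene itself, whose exon 5 lies at chr21:43095438-43095536. The canonical transcripts of both have 945 bases and differ by 1 substitution, A12C, counted from the 5′ end of the transcript. Exon 5, which is coding, is shown for both copies, read from the transcripts of GENCODE on the minus strand, because it is the kind of sequence that gives a read no way to tell them apart.
U2AF1 exon 5: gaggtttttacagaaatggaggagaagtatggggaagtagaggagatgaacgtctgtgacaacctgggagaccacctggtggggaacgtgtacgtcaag
ENSG00000275895 exon 5, at chr21:6487107-6487205: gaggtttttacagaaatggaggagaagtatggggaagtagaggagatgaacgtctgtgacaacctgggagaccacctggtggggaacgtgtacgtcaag

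The U2AF1 row was at 72.6, 127 and 125 CPM in the DMSO libraries at 24 h, and the duplicate at 75.9, 26.5 and 37.7 CPM in the same libraries, low where the first was high. Their sum was 149, 153 and 163 CPM with DMSO and 124, 125 and 117 CPM with tunicamycin. The sum was apart between the groups where the row alone overlapped. For the sum the log2 fold change was 0.08 ± 0.06 (adjusted p = 0.315) at 4 h, -0.35 ± 0.06 (adjusted p = 3.34e-05) at 24 h and -0.18 ± 0.06 (adjusted p = 0.0187) in HEK293T. For the row alone it was 0.21, -0.34 and -0.06, none past the threshold (adjusted p = 0.559, 0.291 and 0.917). The call of the sum in HEK293T was lost without the second or the third library of either group.

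**Figure D5:**
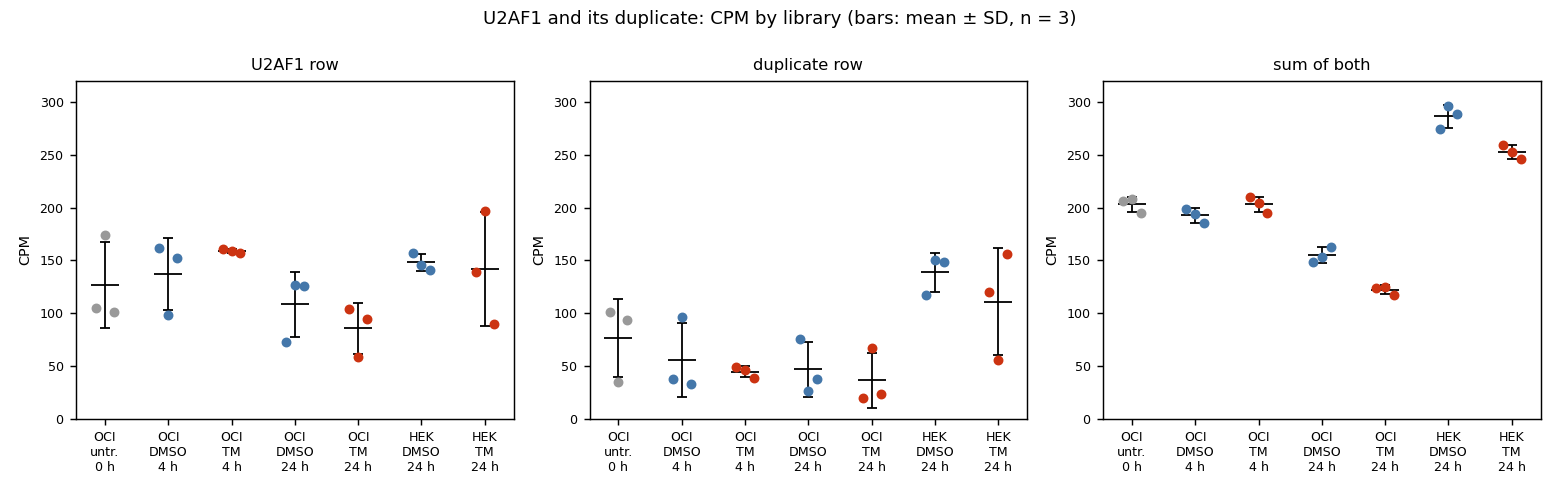
CPM (y axis, linear from 0) of the U2AF1 row, of the row of its duplicate and of their sum in every library, by group (x axis), with points for the 3 libraries and bars for mean ± SD. The row alone spans 58.2 to 104 CPM with tunicamycin at 24 h in OCI-AML3, while the sum spans 117 to 125 CPM.

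The U5 genes did not pass the threshold at 4 h and all fell at 24 h in OCI-AML3. PRPF8 is the scaffold of the catalytic core, SNRNP200 the helicase that unwinds U4 from U6, EFTUD2 a GTPase and PRPF6 a bridge to the tri-snRNP. Their log2 fold changes were between -0.07 and 0.01 at 4 h, and -0.39, -0.48, -0.67 and -0.56 at 24 h in the order just given. EFTUD2 was at 231, 242 and 202 CPM with DMSO and at 154, 139 and 130 CPM with tunicamycin at 24 h. For all 4 the change at 24 h differed from that at 4 h, by -0.34 to -0.60. For PRPF8 this difference lost its call with DESeq2, without TMM and without most single libraries, among them the third tunicamycin library (-0.29, adjusted p = 0.0912). In HEK293T 3 of the 4 fell, and SNRNP200 did not pass the threshold (-0.12, adjusted p = 0.199). The call of PRPF8 in HEK293T (-0.25, adjusted p = 0.0330) was lost without any 1 of the 6 HEK293T libraries (adjusted p = 0.0648 to 0.108).

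The tri-snRNP genes fell at 24 h, but PRPF3 first rose. PRPF3 and PRPF4 bind each other and U4/U6, and PRPF31 joins U4/U6 to U5. PRPF3 was at 91.5, 93.8 and 95.2 CPM with DMSO and at 112, 107 and 115 CPM with tunicamycin at 4 h, then at 74.4, 72.3 and 74.3 CPM against 41.8, 44.8 and 55.2 CPM at 24 h. Its log2 fold change went from 0.25 ± 0.07 (adjusted p = 0.0105) to -0.64 ± 0.08 (adjusted p = 5.85e-07), a difference of -0.88 ± 0.11 (adjusted p = 2.13e-06). Its rise was not called with no filter beyond 1 count (0.21, adjusted p = 0.0884). Its partner PRPF4 instead fell in all 3 comparisons, by 0.40, 0.59 and 0.34. PRPF31 fell by 0.25 and 0.69 in OCI-AML3 and was at -0.07 in HEK293T (adjusted p = 0.516), where the difference from OCI-AML3 was 0.62 ± 0.10 (adjusted p = 9.32e-05). TFPT and PRPF31-AS1 on the other strand share 837 exonic bases with PRPF31, and their part in these values was not tested.

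PRPF19 and SNW1, which act in the complex that activates the spliceosome, rose at 4 h. PRPF19 was at 317, 297 and 288 CPM with DMSO and at 412, 388 and 369 CPM with tunicamycin, a log2 fold change of 0.38 ± 0.07 (adjusted p = 9.65e-05). SNW1 was at 111, 107 and 119 CPM with DMSO and at 135, 140 and 143 CPM with tunicamycin, a change of 0.31 ± 0.06 (adjusted p = 0.000437). Neither stayed up: at 24 h PRPF19 was at -0.20 (adjusted p = 0.0140), a call that was lost without the third tunicamycin library (-0.09, adjusted p = 0.301) and without any of several others, and SNW1 at 0.04 (adjusted p = 0.587). SLIRP, on the other strand, overlaps exons of SNW1.

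GEMIN5, the protein of the SMN complex that recognises snRNAs for Sm ring assembly, fell in all 3 comparisons with little spread. It was at 94.7, 90.6 and 104 CPM with DMSO and at 69.1, 65.0 and 68.5 CPM with tunicamycin at 4 h, and at 76.5, 72.4 and 69.5 CPM against 41.8, 42.8 and 42.1 CPM at 24 h. In HEK293T it was at 98.1, 96.9 and 102 CPM with DMSO and at 78.1, 74.7 and 74.3 CPM with tunicamycin. The log2 fold changes were -0.51, -0.79 and -0.39, each ± 0.06 (adjusted p = 5.38e-07, 1.11e-09 and 4.15e-05). Without the third tunicamycin library at 24 h, that of GEMIN5 was -0.74 (adjusted p = 3.05e-08). PDCD7, a protein of the minor U11/U12 snRNP, was at 26.6, 26.0 and 27.0 CPM with DMSO and at 30.9, 33.8 and 30.5 CPM with tunicamycin in HEK293T, a rise of 0.26 ± 0.07 (adjusted p = 0.00517), and fell by 0.25 at 24 h in OCI-AML3 (adjusted p = 0.00192). For PDCD7 the rise was not called with no filter beyond 1 count (0.24, adjusted p = 0.110), nor the fall with the compared groups alone (-0.23, adjusted p = 0.0589).

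Whether the response changed with time was tested directly in OCI-AML3. For 21 genes the log2 fold change was lower at 24 h than at 4 h and for 1 it was higher, against 20.3% and 15.1% of all genes, and 13 were lower without the third tunicamycin library at 24 h. The farthest from 0 were SNRPA (-1.30), PRPF3 (-0.88), SNRPB (-0.67), EFTUD2 (-0.60) and PRPF19 (-0.58). For the sum of U2AF1 and its duplicate, whose row alone is among the genes not called, the difference was -0.42 (adjusted p = 0.000342). The 21 included all 4 U5 genes and SNRPB of the Sm genes, and whether subcomplexes differ in this was not tested.

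Whether it changed with the line was tested at 24 h. For 25 genes the change was higher in HEK293T than in OCI-AML3 and for 1 it was lower, against 15.9% and 10.9% of all genes. The farthest from 0 were SNRPA (1.01), LSM7 (0.81), SNRPD2 (0.73), LSM2 (0.69) and SNRPG (0.65). This count was 11 without the third tunicamycin library of OCI-AML3, 14 without the second or without the third DMSO library of OCI-AML3, 13 to 16 without single HEK293T libraries, except the third with tunicamycin, and 14 with library sizes unscaled by TMM. Comparisons with the same DMSO libraries share their error, so these differences are not independent of the changes they are made of.

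Without tunicamycin, no change in the first 4 h passed the threshold. No gene of the 42 differed between DMSO at 4 h and untreated cells by edgeR's test, as 0% of all genes did in either direction. An unadjusted p under 0.05 was found for 2 of the 42, against 1160 of the 14012 genes tested. Neither limma voom nor DESeq2 called any of the 42, and over all genes they called 0 and 16. The libraries did not overlap for SNRPA1 and SNRPB2, which were lower with DMSO, and for SF3B2 and PDCD7, which were higher. The share of all genes without overlap was not computed for this comparison, so these genes are not read as changed. From DMSO at 4 h to DMSO at 24 h, none rose and 15 fell, against 21% and 21.6% of all genes. Those farthest from 0 were SNRPF (-0.49), GEMIN5 (-0.41), SF3B4 (-0.39), LSM1 (-0.38) and SNRPD1 (-0.37). Of the 15 calls, 9 were kept under every alternative run, and that of LSM1, whose libraries overlap, was lost without the first DMSO library at 4 h (-0.26, adjusted p = 0.0721) or the second at 24 h (-0.31, adjusted p = 0.0599). The sum of U2AF1 and its duplicate fell by 0.32 (adjusted p = 0.000124). With DESeq2's Wald test 3 rose and 14 fell, and without TMM, where the median of all genes moved to -0.14, 23 fell. Of the 42, 33 were below 0 and 9 above it. For the 15 that fell, the tunicamycin change at 24 h is relative to a lower control level than at 4 h.

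Between the lines under DMSO, 15 of the 42 were higher in HEK293T and 11 lower, against 40.5% and 42.2% of all genes, and 1 was past a log2 fold change of 1, against 45.2%. That gene was PDCD7, at 26.0 to 27.0 CPM in HEK293T and 60.8 to 64.3 CPM in OCI-AML3 (-1.24 ± 0.06, adjusted p = 2.24e-14). SNRPF (0.95), SNRPD1 (0.80) and SNRPA1 (0.73), the U2 protein A′, were higher in HEK293T, as was the sum of U2AF1 and its duplicate (0.89, adjusted p = 1.01e-12), and SF3A2 (-0.66), LSM8 (-0.56) and LSM2 (-0.55) were lower. Of the 26 calls between lines, 13 were kept under every alternative run, and that of LSM8 was lost without TMM (-0.22, adjusted p = 0.153). The split depends on the scaling: with library sizes unscaled by TMM, where the median of all genes moved to 0.33, 30 were higher and 4 lower, and without a filter beyond 1 count 10 were higher and 18 lower.

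A list of 93 further spliceosome genes, in which 8 LSM-related and U7 genes were also counted, gives the surroundings. At 4 h in OCI-AML3 23 of them rose and 18 fell, at 24 h 8 rose and 45 fell, and in HEK293T 2 rose and 24 fell, with median log2 fold changes of -0.01, -0.18 and -0.12. The shares at 4 h were 24.7% higher and 19.4% lower, against 18.5% and 18.9% of all genes. At 24 h they were 8.6% and 48.4%, against 23.5% and 27.7%, and in HEK293T 2.15% and 25.8%, against 12.6% and 13.1%. Of 15 genes of the PRPF19-associated complex and its relatives, 8 rose and none fell at 4 h, and 3 rose and 4 fell at 24 h. Of 15 snRNP assembly factors, 3 rose and 4 fell at 4 h, and none rose and 10 fell at 24 h. At 24 h 10 of 15 step helicases and factors and 9 of 13 further U5 and tri-snRNP genes also fell. Of 7 U1-associated genes, however, none fell and 1 rose at 24 h, and of 10 minor spliceosome genes 3 fell and 2 rose. With DMSO alone, 6 of these 7 U1-associated genes fell from 4 h to 24 h and 0 rose, with a median of -0.42. Of the 93, 45 fell (48.4%) and 3 rose (3.23%) in DMSO, against 21.6% and 21% of all genes. For those that fell in DMSO, the tunicamycin change at 24 h is relative to a lower control level than at 4 h. GEMIN4 (-0.97), GEMIN6 (-0.96) and the tri-snRNP helicase DDX23 (-0.75) fell most at 4 h, where U2AF1L4 (0.75), ZRSR2 (0.74) and RBM48 (0.71) rose most. NAA38 (-1.23), SNRNP25 (-1.23) and PPIH (-1.02) fell most at 24 h, and GEMIN4 (-0.57), USB1 (-0.54) and SNRNP25 (-0.54) in HEK293T.

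The promoters of the members, whatever their change, were read for shared motifs, in the 300 bases from 250 before to 50 after the start that RefSeq gives on GRCh38.p14, with 37 of the 42 genes matched. CCGGAAG, the core that ETS family factors bind, was found on either strand in 18 of 37 promoters (48.6%), against 10.3% of all promoters and 17.5% of those of tested genes. CCAAT was found in 10 of 37 (27%, against 34.6% of all and 34.7% of tested genes), and TATAAA in 1 (2.7%, against 11.5% and 6.15%). TTGCATCA, a sequence bound by ATF4 with a C/EBP partner, TGACGTGG, bound by ATF6, and the ER stress element (ERSE) were in none, against 0.866%, 0.729% and 0.0769% of all promoters and 0.53%, 0.825% and 0.121% of those of tested genes. The motifs were chosen with the results known, the matches are descriptions and not binding sites, and the share of promoters of tested genes is the nearer comparison. Of the 18 genes with CCGGAAG 17 fell at 24 h in OCI-AML3, and of the 19 without it 16 fell, with medians of -0.50 and -0.60. At 4 h 5 of the 18 and 10 of the 19 fell, and in HEK293T 11 and 7, so the order of the groups was not the same in the 3 comparisons.

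The 120 bases before the start are shown for SNRPB, SF3B2 and U2AF2, which hold CCGGAAG or its reverse complement there, and for SNRPA and PRPF4, which hold neither, to show what a match looks like. All 5 genes fell at 24 h in OCI-AML3. At 4 h SNRPA rose, PRPF4 fell and the other 3 did not pass the threshold. Capitals mark the motif, and the coordinates are chr20:2470790-2470909 on the minus strand, chr11:66052244-66052363, chr19:55654915-55655034, chr19:40751083-40751202 and chr9:113275538-113275657 on the plus strand.
SNRPB: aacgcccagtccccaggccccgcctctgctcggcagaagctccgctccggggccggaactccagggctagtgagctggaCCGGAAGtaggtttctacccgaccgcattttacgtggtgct
SF3B2: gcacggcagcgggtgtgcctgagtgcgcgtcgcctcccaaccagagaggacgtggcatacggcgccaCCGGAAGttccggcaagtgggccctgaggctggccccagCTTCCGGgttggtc
U2AF2: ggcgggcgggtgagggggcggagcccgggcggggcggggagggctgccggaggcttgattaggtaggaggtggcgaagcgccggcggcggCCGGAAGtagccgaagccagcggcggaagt
SNRPA: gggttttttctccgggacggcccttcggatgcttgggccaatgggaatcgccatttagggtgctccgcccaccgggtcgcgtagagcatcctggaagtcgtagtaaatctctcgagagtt
PRPF4: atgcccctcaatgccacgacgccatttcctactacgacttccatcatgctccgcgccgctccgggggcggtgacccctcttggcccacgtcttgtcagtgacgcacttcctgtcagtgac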

How the data were processed

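The RNA of 21 libraries was analysed. The authors deposited unscaled expected counts of every gene, which RSEM had estimated on the Ensembl annotation from STAR alignments to GRCh38 of quality-trimmed (seqtk), paired-end, poly(A)-enriched libraries. RSEM divides reads between alike genes, and strand use is not given in the sources used here. Every column was mapped to a sample by its title. After rounding and TMM scaling, 7 group means were fitted and compared by the quasi-likelihood test of edgeR (edgeR 4.0.16, R 4.3.3). The test ran on 14012 genes with at least 1 CPM in 8 libraries, with Benjamini-Hochberg adjustment over all of them, and a gene rose or fell at an adjusted p of at most 0.05. The study's methods name limma voom, which was an alternative (limma 3.58.1), as were DESeq2 (1.42.0), other scalings and filters, the compared groups alone, a replicate block and each library left out. The fits were tested on simulated data. The members and lists were chosen with earlier results of these data known.

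Named genes are the members: those past the threshold, with values in every library for the 4 farthest from 0 in each direction whose libraries did not overlap, the 5 interactions farthest from 0, and LSM1, LSM8 and U2AF1 in any case. Some further members past the threshold have their library values given as examples, chosen after these were seen. GENCODE release 44 (GRCh38) gave positions and lengths, and RefSeq the promoters. Proteins, splicing events and the RefSeq promoters of 5 members were not used here. Plots were made in matplotlib 3.10.9.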

Additional observations from a re-analysis of the deposited data

Results flagged for a closer look

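The changes with tunicamycin differed between times or between lines for the genes below, by the test of the difference itself in edgeR's fit (adjusted p of at most 0.05). In OCI-AML3 the log2 fold change at 24 h minus that at 4 h was -1.30 for SNRPA, -0.88 for PRPF3, -0.67 for SNRPB, -0.60 for EFTUD2, -0.58 for PRPF19, -0.57 for PRPF6, -0.54 for SF3B2, -0.51 for SF3A1, -0.50 for SNRPA1, -0.49 for LSM2, -0.48 for SF3A2 and for LSM4, -0.44 for PRPF31, -0.43 for SNRNP200, -0.40 for U2AF2, -0.36 for SF3A3, -0.34 for PRPF8, -0.28 for SNRPC, -0.27 for GEMIN5 and for SNW1, and -0.24 for PDCD7. It was 0.40 for SNRPD3.

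At 24 h the log2 fold change in HEK293T minus that in OCI-AML3 was 1.01 for SNRPA, 0.81 for LSM7, 0.73 for SNRPD2, 0.69 for LSM2, 0.65 for SNRPG, 0.64 for LSM5, 0.62 for PRPF31, 0.51 for PDCD7, 0.47 for SF3A2, 0.46 for LSM3, 0.44 for SNRPB, 0.43 for LSM4 and for PRPF3, 0.42 for SNRPF, 0.41 for SNRPD1, 0.40 for SNRPC, for GEMIN5 and for SF3A3, 0.36 for SNRNP200, 0.35 for SF3B3, 0.34 for EFTUD2, 0.31 for SNRPE, for SNRPA1 and for SF3B2, and 0.25 for PRPF4. It was -0.30 for SF3B1. Of these differences, 14 of 22 between times and 8 of 26 between lines passed the threshold under every alternative run.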

How the results depend on the processing

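Of the calls with tunicamycin, 19 of 22 at 4 h, 32 of 38 at 24 h in OCI-AML3 and 11 of 22 in HEK293T passed under every alternative run. At 24 h in OCI-AML3, 2 genes rose with DESeq2's Wald test, with its size factors, without TMM and with 1 CPM in 3 libraries. The median was -0.18 at 4 h with no filter beyond 1 count and -0.46 at 24 h without TMM, and in HEK293T -0.21 without TMM, -0.19 with no filter and -0.16 with the compared groups alone. From DMSO at 4 h to 24 h, 3 rose with DESeq2's Wald test, 2 rose with its size factors and 23 fell without TMM, where the median of all genes moved to -0.14. Between lines, 30 rose and 4 fell without TMM, 18 fell with no filter, and LSM7 (0.0076), PRPF6 (0.095) and PRPF19 (0.17) turned in sign without TMM. The difference between times was lower for 13 genes with the compared groups alone. That between lines was higher for 14 without TMM, and lower for 2 with DESeq2's Wald test, without TMM and with the compared groups alone. Past the adjusted p alone there were 22, 38 and 22 genes, against 0, 1 and 0 past both thresholds. The U2AF1 row alone gave -0.34 at 24 h and -0.0593 in HEK293T, and the U2AF1 sum in HEK293T was -0.20 (adjusted p = 0.104) with no filter. The causes were not tested.

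With each library left out in turn, the median ran from -0.18 to -0.0795 at 4 h, from -0.54 to -0.43 at 24 h and from -0.19 to -0.17 in HEK293T. At 24 h 1 to 2 genes rose, in HEK293T 11 to 20 fell, and in DMSO from 4 h to 24 h 0 to 2 rose. The difference between times was lower for 13 to 24 genes, and that between lines higher for 11 to 26 and lower for 0 to 2. LSM1 ran from -0.18 to 0.0188 at 24 h in OCI-AML3 and from -0.0904 to 0.0748 in HEK293T, U2AF1 in HEK293T from -0.37 to 0.18, and the U2AF1 sum there from -0.21 to -0.16. Libraries with the same replicate number had weakly correlated deviations from their group means (-0.19 to 0.20), which cannot show whether the samples were paired. With the replicate block 5 rose and 17 fell at 4 h, 1 and 37 at 24 h, and 3 and 20 in HEK293T.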
